A study of Mus musculus with 768 samples.

Results

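Muscle stem cells were divided by *Gas1*: 231 cells had at least 1 read on the gene and 146 had 0 reads, and these are all the cells of the deposited RNA counts. The groups were thus chosen by the measured *Gas1* reads themselves. The cells came from the tibialis anterior, at the front of the lower leg, of *Tg:Pax7-nGFP* mice on a mixed C57BL/6 and DBA2 background, in which regulatory sequence of the stem cell gene *Pax7* drives a nuclear green fluorescent protein. Every muscle was digested with collagenase and trypsin and its cells were frozen and thawed before sorting, and the sort took the brightest 10% of the fluorescent cells, so both *Gas1* groups share that treatment and that selection. There were 253 cells from the young mice Y4, Y5, Y7 and Y8 (2 months) and 124 cells from the old mice O1 and O5 (24 months). The reads were those of full-length cDNA made beside a methylation library from the same cell.

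*Gas1* (growth arrest-specific 1) encodes a protein held at the cell surface by a lipid anchor and was named for its accumulation in fibroblasts that have stopped dividing. It acts with Cdon and Boc as a co-receptor for Hedgehog ligands, and it is related in structure to the receptors that present ligands of the GDNF family to the tyrosine kinase Ret. Muscle stem cells rest beside the muscle fibre under its basement membrane, marked by the transcription factor Pax7, and on injury they switch on *Myod1*, divide and form new fibres. Taking cells out of muscle with enzymes is itself a stimulus for immediate early genes such as *Fos* and *Egr1*, which are transcribed within minutes of a signal.

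Promoter windows are shown first for *Zfp36* and *Btg2*, early response genes that were higher with *Gas1* reads in every mouse. Their windows hold a motif, unlike those of most isolation-response genes described below. They are RefSeq sequence of GRCm38.p6, the 250 bases before the start of the gene, read 5′ to 3′ on the minus strand at chr7:28379229-28379478 and chr1:134079156-134079405. The start is that of RefSeq: GENCODE M21 lets *Zfp36* reach from 28376784 to 28380253, so the first window lies inside that gene model. Capitals mark a CArG box, the motif of serum response factor, in *Zfp36* and the cAMP response element TGACGTCA in *Btg2*.
Zfp36: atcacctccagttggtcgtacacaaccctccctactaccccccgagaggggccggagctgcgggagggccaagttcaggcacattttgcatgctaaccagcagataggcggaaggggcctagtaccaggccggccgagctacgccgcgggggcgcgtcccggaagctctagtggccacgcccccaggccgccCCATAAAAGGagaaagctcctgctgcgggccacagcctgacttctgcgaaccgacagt
Btg2: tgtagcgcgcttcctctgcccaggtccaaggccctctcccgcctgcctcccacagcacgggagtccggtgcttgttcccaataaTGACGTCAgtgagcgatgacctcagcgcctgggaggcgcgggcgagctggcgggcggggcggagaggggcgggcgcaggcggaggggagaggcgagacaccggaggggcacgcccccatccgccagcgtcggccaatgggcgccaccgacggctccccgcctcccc

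*Gas1* lies on chromosome 13 at 60174405-60177365, on the minus strand of GRCm38. GENCODE M21 places a lincRNA on the other strand, *Gm48488* (60176682-60182862), over its 5′ end, and that name has no row in the counts, so reads from the overlap cannot be assigned to a strand here. Because the reads chose the groups, the levels that follow are a description. Cells with reads made up 75.0% of Y4 (45 of 60), 68.2% of Y5 (30 of 44), 66.2% of Y7 (49 of 74), 84.0% of Y8 (63 of 75), 41.1% of O1 (23 of 56) and 30.9% of O5 (21 of 68). Every young mouse therefore had a larger share than either old mouse, with means of 73.3% ± 8.04 (SD, n = 4) and 36.0% ± 7.20 (SD, n = 2). As a result 80 of the cells with 0 reads came from old mice and 66 from young mice.

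Most cells with reads had many of them. The median was 181 reads, or 607 RPM (reads-per-million), and the highest cell had 12766 RPM. By mouse, the median over these cells was 923 RPM in Y4, 592 in Y5, 506 in Y7, 799 in mouse Y8, 72.7 in O1 and 422 in O5, so O1 was far below the rest. Just inside the threshold, 20 cells had 1 to 3 reads (1.74 to 24.5 RPM) and a median of 1887 detected genes, beside 1785 in the cells with 0 reads. In those cells 3 reads, the most that a count of 0 allows at 95%, amounted to 5.84 to 29.5 RPM, a limit for counting error only since the reads carry no molecular identifiers. When every cell was thinned to 100000 reads, 8 of the 231 cells lost all their *Gas1* reads.

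**Figure D1:**
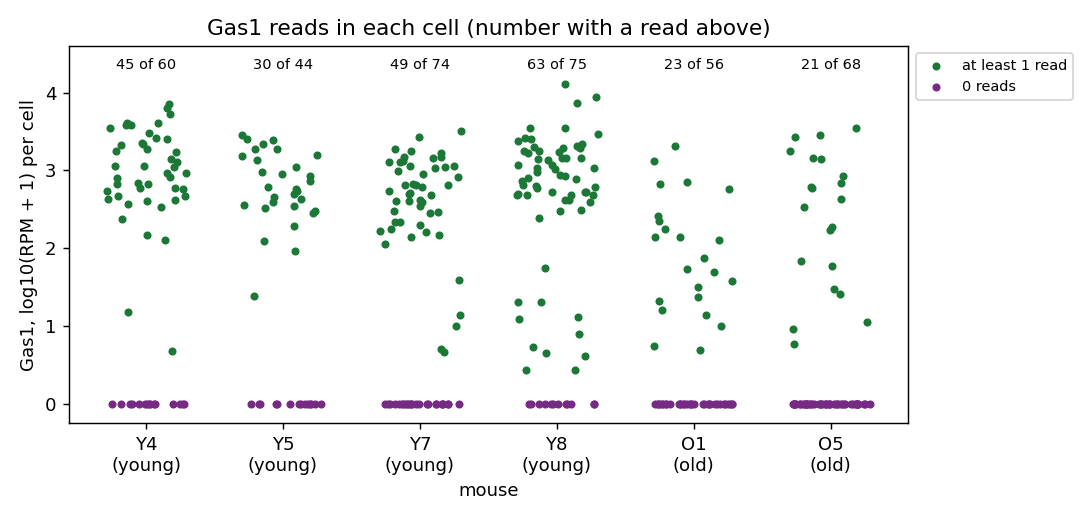
Gas1 level of each cell as log10(RPM + 1), by mouse. Green points are cells with at least 1 read and purple points cells with 0 reads, and the numbers above give the cells with a read out of all cells of the mouse, from 63 of 75 in Y8 to 21 of 68 in O5.

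The cells carried markers of muscle stem cells, to unequal extents. *Pax7* was read in 89.9% of all cells, *Des*, a muscle intermediate filament, in 90.7%, and *Sdc4*, a surface proteoglycan, in 99.7%. Other markers of the list were read less often, such as *Myf5* in 72.4% and *Cdh15* in 55.2%. Of the markers of other cell types, *Pdgfra*, *Dcn*, *Lum*, *Mfap5* and *Pi16* (5 of 12 fibro-adipogenic genes), 7 of 8 endothelial, 7 of 10 immune, 4 of 6 Schwann, 3 of 5 tendon, 2 of 10 myofibre and 1 of 8 mural genes had 0 reads in every cell. Summed over each list, cells with and without *Gas1* reads had 1055 to 3229 and 1348 to 2697 CPM (counts-per-million) of fibro-adipogenic genes. Within these, *Gsn* had 787 to 2319 and 873 to 1947 CPM, and *Dpt* 262 to 1111 and 135 to 747 CPM. Mural genes had 398 to 1010 and 491 to 1415 CPM, a list that holds *Notch3*, which muscle stem cells also express. The other lists reached at most 1.68 and 0 CPM (endothelial), 32.6 and 28.3 (immune), 24.8 and 31.7 (Schwann), 77.2 and 33.8 (tendon) and 123 and 271 (myofibre).

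Depth and the number of detected genes differed between the groups in part of the mice. The median cell with *Gas1* reads had more reads in 5 of 6 mice, by 29103 on average ± 36465 (SD, n = 6; exact two-sided sign-flip permutation test, p = 0.125). The median numbers of detected genes with and without *Gas1* reads, *Gas1* not counted, were 1959 and 1664 in Y4, 2220 and 1847 in Y5, 2487 and 2323 in Y7, 1815 and 1900 in mouse Y8, 1711 and 1525 in O1, and 1738 and 1796 in O5. Y8 and O5 thus ran against the other mice, and the mean difference of 146 ± 185 genes (SD, n = 6) did not pass the exact sign-flip permutation test (p = 0.125, where 6 mice allow no less than 0.03125). At 100000 reads per cell it was 138 genes (exact permutation p = 0.125). Values are therefore also given, for the leading genes and the lists, in 85 pairs of cells, 1 with and 1 without *Gas1* reads, from the same mouse and at most 50 detected genes apart.

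**Figure D2:**
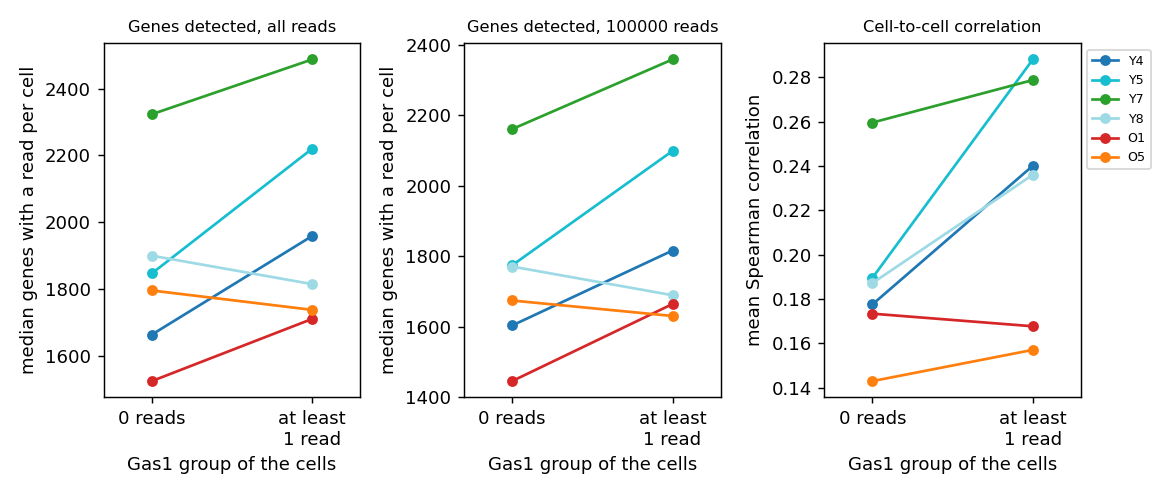
Median number of detected genes per cell with all reads (left) and at 100000 reads per cell (middle), and mean cell-to-cell Spearman correlation (right), in cells without and with Gas1 reads, 1 line per mouse. Detected genes are higher with Gas1 reads in Y4, Y5, Y7 and O1, and the correlation is higher in every mouse but O1.

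To ask which genes went with *Gas1*, the counts of each group were summed within each mouse, *Gas1* was left out, and the 12 sums were fitted in edgeR with the mouse as a block. Of 9428 genes, 0 passed an adjusted p of 0.05 in edgeR (0% in either direction), over all mice, in young mice, in old mice and in the difference between the ages. The smallest adjusted p over all mice was 0.531, and 342 genes (3.63%) had an unadjusted p under 0.05, 270 of them higher with *Gas1* reads. In simulated counts with the dispersion of these sums (median 1.44), edgeR recovered 0 of 100 genes changed 2-fold and 2 of 100 changed 4-fold, so the count of 0 does not show that no gene differed. DESeq2, on the same sums, called 422 genes (371 higher, 3.94%, and 51 lower, 0.541%). Which of the 2 tools is better calibrated for such sums was not tested, and a DESeq2 call below stands beside an edgeR test that did not pass. limma, on the mean log2(RPM + 1) of the cells of each sum, called 15 (13 higher, 0.138%, and 2 lower, 0.0212%), and 11 of these 15 (73.3%) were among the 422 (2.61%). The count from limma was 9 without Y4 and 25 without O5, and that from DESeq2 256 without Y8. With equal numbers of cells in both sums of a mouse limma called 0 (smallest adjusted p = 0.0634, 686 with an unadjusted p under 0.05), so each limma call below is lost there.

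Fold changes are to be read against a median over all genes of 0.33 on the log2 scale. That median was 0.61 in young mice, where most cells had *Gas1* reads, and −0.19 in old mice, where most had none. In the mice of sequencing lane 3 alone (Y4, Y5 and Y8) it was 0.82, and in those of lane 2 (Y7, O1 and O5) −0.08. It was 0.09 with equal numbers of cells in both sums of a mouse and −0.02 in the matched cells. The 10 leading genes on each side had the smallest p in edgeR among those read in at least 10% of cells that differed the same way in all 6 mice, as 2.56% of such genes did upwards and 2.1% downwards (2.67% and 1.44% of all genes tested), and in edgeR none of them passed. *Egr1* and *Pax7*, which the study names, are described with them, and *Btg2*, *Atf3*, *Ier3* and *Cnn3*, which limma called, were named after their values were seen.

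Of the 10 leading genes higher with *Gas1* reads, 6 (*Zfp36*, *Fosb*, *Fos*, *Junb*, *Nr4a1* and *Jun*) belong to the list of the early response to isolation. *Fos*, a subunit of the transcription factor AP-1 (chromosome 12, 85473890-85477273), had 3769 CPM with *Gas1* reads and 574.7 without in Y4, 5070.0 and 508.9 in Y5, 2442 and 951.8 in Y7, 3780.0 and 122.6 in mouse Y8, 3401 and 1975 in O1, and 6033 and 1861 in O5. Every sum with *Gas1* reads lay above every sum without, which held for 0.329% of genes in this direction and, reversed, for 0.0636%. The log2 fold change was 2.44 ± 0.53 (SE, edgeR adjusted p = 0.900). *Fos* passed in limma (log2 difference 3.83 ± 0.49, adjusted p = 2.01e-05) and in DESeq2 (adjusted p = 0.0108), and in matched cells, where the log2 fold change was 2.21, it passed in both again (limma adjusted p = 0.00154, DESeq2 adjusted p = 5.46e-06).

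The relatives of *Fos* in AP-1 were higher as well. *Junb* ran from 1598 to 2424 CPM (median 2156) with *Gas1* reads and from 296 to 1625 CPM (median 942) without, with a log2 fold change of 1.32 ± 0.29 (SE) and a limma adjusted p of 0.000386; it shares sequence with *Prdx2* on the other strand. *Fosb* ran from 1451 to 4597 CPM (median 2161) and from 606 to 2423 CPM (median 1025), with a log2 fold change of 0.97 ± 0.19 and a limma adjusted p of 0.00119. *Jun* ran from 1132 to 2445 CPM (median 1860) and from 306 to 1886 CPM (median 880), with a log2 fold change of 1.19 ± 0.30; it passed in DESeq2 (adjusted p = 0.00821) and not in limma (adjusted p = 0.128). The ranges over mice overlapped for all 3 genes, although within each mouse the cells with *Gas1* reads had more. In matched cells the log2 fold changes of *Junb*, *Fosb* and *Jun* were 1.15, 1.12 and 1.07; limma kept *Fosb* (adjusted p = 0.0160) and lost *Junb* (adjusted p = 0.551), and DESeq2 called all 3 (adjusted p = 0.0310, 0.00477 and 0.0166).

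*Egr1*, a zinc finger transcription factor induced by growth factors, differed by unequal amounts from mouse to mouse. It had 4616 CPM with *Gas1* reads and 1138 without in Y4, 3954 and 613.8 in Y5, 2048 and 1496 in Y7, 1969 and 86.0 in mouse Y8, 7928 and 5276 in O1, and 5154 and 3696 in O5. The gap was wide in Y4, Y5 and Y8, the mice of sequencing lane 3, and narrow in Y7, O1 and O5, the mice of lane 2. Its log2 fold change was 1.73 ± 0.55 (edgeR adjusted p = 0.999); limma called it in all cells (log2 difference 3.27, adjusted p = 9.64e-05) and in matched cells (adjusted p = 0.0385), and DESeq2 in neither (adjusted p = 0.179 and 0.156).

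*Zfp36*, whose protein binds AU-rich mRNAs and speeds their decay, ran from 680 to 2281 CPM (median 1174) with *Gas1* reads and from 250.5 to 882 CPM (median 504) without. Its log2 fold change of 1.32 ± 0.21 came with an edgeR adjusted p of 0.531, a DESeq2 adjusted p of 1.76e-05 and a limma adjusted p of 0.0682. *Nfkbiz*, a nuclear regulator of NF-kB, ran from 360 to 1391 CPM (median 562) and from 86.5 to 560 CPM (median 183), with a log2 fold change of 1.73 ± 0.32 and a limma adjusted p of 0.00486. In matched cells the log2 fold changes were 1.12 for *Zfp36*, which DESeq2 called (adjusted p = 0.00684), and 1.41 for *Nfkbiz*, which lost its calls in limma (adjusted p = 0.315) and DESeq2 (adjusted p = 0.164).

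*Nr4a1*, an orphan nuclear receptor, ran from 391 to 3261 CPM (median 2059) with *Gas1* reads and from 26.9 to 1731 CPM (median 652) without (limma adjusted p = 0.0156). *Btg2*, an antiproliferative gene, ran from 213 to 1355 CPM (median 901) and from 6.38 to 677 CPM (median 371) (limma adjusted p = 0.00231). *Atf3*, a stress-induced transcription factor, and *Ier3* had log2 fold changes of 1.41 ± 0.39 and 1.31 ± 0.66 and passed in limma (adjusted p = 0.0156 and 0.0300). All 4 were higher with *Gas1* reads in each of the 6 mice. In matched cells all 4 lost their limma call (adjusted p = 0.594 for *Nr4a1*, 0.155 for *Btg2*, 0.350 for *Atf3* and 0.655 for *Ier3*). The log2 fold changes there were 1.34 for *Nr4a1* and 1.83 for *Btg2*, which DESeq2 called (adjusted p = 0.00665 and 0.0254), and 0.72 for *Atf3* and 0.77 for *Ier3*, which it did not (adjusted p = 0.404 and 0.704).

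**Figure D3:**
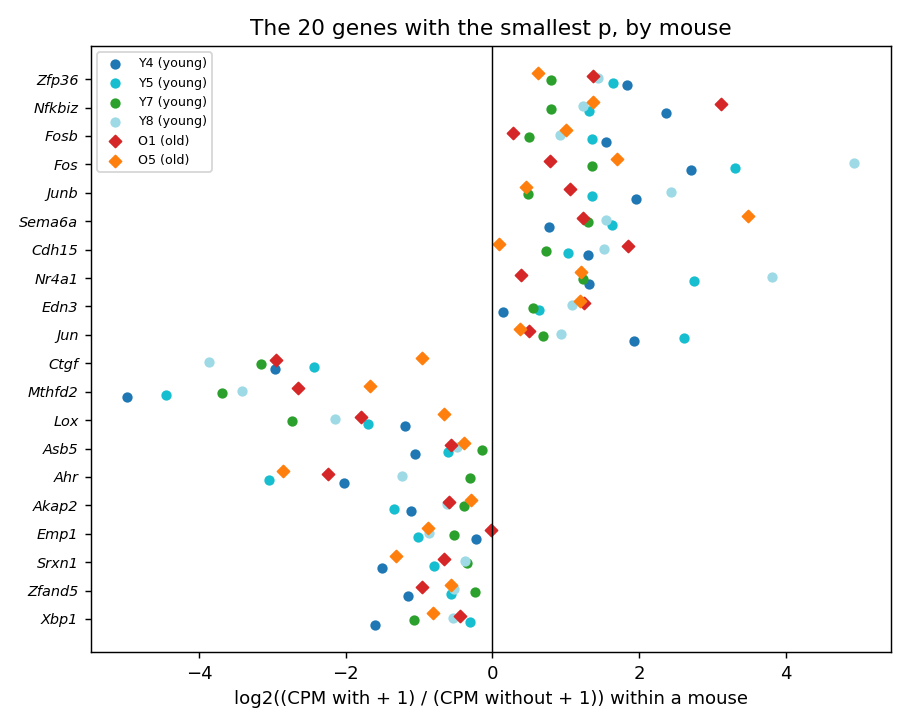
Within-mouse log2 ratio of the CPM of cells with Gas1 reads over that of cells without, 1 CPM added to each, for the 10 genes on each side with the smallest edgeR p among those that differed the same way in all 6 mice. Circles are young mice and diamonds old mice; Fos is highest in Y8 (4.93) and Sema6a in O5 (3.49).

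Described as a list, the early response to isolation had a median log2 fold change of 1.11 over 28 genes tested, beside 0.33 over all genes, and 0.81 in matched cells, beside −0.02. Of the 28 genes 24 were above 0, beside 63.4% of all genes, and in matched cells 22 of 26, beside 49.4%. Higher in all 6 mice were 13, beside 2.67% of all genes, and lower in all 6 were 0, beside 1.44%. The 13 were *Fos*, *Fosb*, *Jun*, *Junb*, *Egr1*, *Ier2*, *Ier3*, *Atf3*, *Nr4a1*, *Btg2*, *Zfp36*, *Socs3* and *Hspa1b*. In edgeR 0 passed, in limma 8 rose, beside 0.138% of all genes, and in DESeq2 9 rose, beside 3.94%. No member fell in limma or DESeq2, where 0.0212% and 0.541% of all genes fell. The summed level was 24882 to 45581 CPM over mice with *Gas1* reads and 14185 to 29619.5 CPM without, higher in each mouse. Other members did not follow: the chaperones *Hspa8* and *Hsp90aa1* had log2 fold changes of 0.13 ± 0.13 and 0.05 ± 0.16, and *Myc* and *Fosl2*, also early response genes, had −0.11 ± 0.22 and −0.08 ± 0.35.

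The motifs in the windows printed above were searched on both strands of the 250 bases before the start of 27025 genes. Of the 23 listed isolation-response genes with a window, 2 held the CArG box (*Egr2* and *Zfp36*), beside 1.62% of all genes, and 3 held TGACGTCA (*Btg2*, *Dusp1* and *Maff*), beside 1.77%. The TEAD motif GGAATG was held by 2 (*Egr2* and *Nr4a1*), beside 14.4%. Of the 10 leading higher genes 8 had a window, with 1, 0 and 1 matches to the 3 motifs, and of the 10 leading lower genes 6 had one, with 1 (*Asb5*), 0 and 0. These are matches of letters only.

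*Pax7* (chromosome 4, 139737062-139833528) had 1090.0 CPM with *Gas1* reads and 739 without in Y4, 658 and 437 in Y5, 874 and 734 in Y7, 446 and 175 in mouse Y8, 1302 and 789 in O1, and 1083 and 787 in O5. Each mouse had more with *Gas1* reads, by a small margin in Y7. The log2 fold change was 0.68 ± 0.20 (edgeR adjusted p = 0.999), and *Pax7* passed in limma (log2 difference 1.81, adjusted p = 0.0156) but not in DESeq2 (adjusted p = 0.0620).

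*Cdh15* encodes M-cadherin, which joins a muscle stem cell to its fibre, and overlaps *Gm20388*. It ran from 394 to 829 CPM (median 600.1) with *Gas1* reads and from 119.9 to 450.2 CPM (median 339) without, with a log2 fold change of 1.12 ± 0.27 (limma adjusted p = 0.0156, DESeq2 adjusted p = 0.0135). The gap was narrow in O5, at 394 CPM with *Gas1* reads and 368 without, and wide in O1, at 434 and 119.9 CPM. *Sema6a*, a transmembrane semaphorin, ran from 229.6 to 680 CPM (median 393) and from 46.6 to 288 CPM (median 108), with a log2 fold change of 1.67 ± 0.38 (limma adjusted p = 0.00282, DESeq2 adjusted p = 0.00439). *Edn3*, the peptide endothelin 3, ran from 723 to 1317 CPM (median 846) and from 357 to 778 CPM (median 515), with a log2 fold change of 0.84 ± 0.21 and a call in DESeq2 (adjusted p = 0.0355) but not in limma (adjusted p = 0.167). In matched cells limma called none of *Pax7*, *Cdh15*, *Sema6a* and *Edn3* (adjusted p = 0.373, 0.594, 0.506 and 0.670), nor did DESeq2 (adjusted p = 0.0782, 0.0938, 0.122 and 0.181), with log2 fold changes there of 0.89, 1.20, 1.40 and 0.85. *Cnn3*, an actin-binding calponin, passed in limma (adjusted p = 0.0300; matched cells, 0.757) and was higher in 5 of 6 mice.

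Of 10 muscle stem cell markers 9 were above 0, beside 63.4% of all genes. Their median was 0.21 (0.10 in matched cells), beside 0.33 over all genes. Those higher in all 6 mice were *Pax7* and *Cdh15*, as were 2.67% of all genes. Both were also called higher by limma, beside 0.138% of all genes, and DESeq2 called *Cdh15* alone, beside 3.94%. *Vcam1*, an adhesion molecule, had a log2 fold change of 0.10 ± 0.29, *Myf5*, a myogenic regulator, 0.19 ± 0.30, and *Calcr*, the calcitonin receptor of resting cells, 0.76 ± 0.48. *Myod1*, which marks activation, had 571 CPM with *Gas1* reads and 631 without in Y4, 160.2 and 461 in Y5, 1344 and 2143 in Y7, 726 and 1737 in mouse Y8, 1077 and 674 in O1, and 675 and 1241 in O5. It was lower with *Gas1* reads in every mouse but O1, at a log2 fold change of −0.61 ± 0.27, and no tool called it (edgeR adjusted p = 0.999).

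Among the 10 leading genes lower with *Gas1* reads, *Mthfd2*, a mitochondrial enzyme of folate metabolism used by growing cells (chromosome 6, 83305691-83325908), had 1.76 CPM with *Gas1* reads and 85.9 without in Y4, 5.52 and 142 in Y5, 33.5 and 445 in Y7, 65.1 and 706 in mouse Y8, 18.7 and 122 in O1, and 16.6 and 55.2 in O5. Each mouse had less with *Gas1* reads, and the ranges overlapped only through Y8. The log2 fold change was −3.60 ± 0.61 (edgeR adjusted p = 0.645), with a call in DESeq2 (adjusted p = 1.21e-07) and none in limma (adjusted p = 0.167), and in matched cells it was −2.68 with no call in DESeq2 (adjusted p = 0.136). The gene was read in 12.7% of cells, so few cells carried each sum.

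*Ctgf*, a matricellular protein and known target of the Hippo pathway, had the smallest p of these 20 genes. It ran from 21.8 to 438 CPM (median 64.6) with *Gas1* reads and from 202 to 849.5 CPM (median 553) without, lower in each mouse and least so in O5. The log2 fold change was −2.74 ± 0.39 (edgeR adjusted p = 0.531), with a call in DESeq2 (adjusted p = 1.54e-08; matched cells, 5.55e-06) and none in limma (adjusted p = 0.673). The share of cells with a *Ctgf* read was 21.4% and 21.5%, and 12.2% and 26.6% in matched cells. *Lox*, which cross-links collagen, ran from 57.2 to 433 CPM (median 151) and from 222 to 857 CPM (median 528), with a log2 fold change of −1.68 ± 0.31, a call in DESeq2 (adjusted p = 0.000130) and none in limma (adjusted p = 0.327); in matched cells it was −2.28 and the DESeq2 call was lost (adjusted p = 0.110).

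*Ahr*, the aryl hydrocarbon receptor, had a log2 fold change of −1.96 ± 0.48, *Srxn1*, which repairs oxidised peroxiredoxins, −0.80 ± 0.21, and *Xbp1*, a regulator of the unfolded protein response, −0.76 ± 0.22. DESeq2 called all 3 (adjusted p = 0.00202, 0.0168 and 0.0334) and limma none (adjusted p = 0.582, 0.180 and 0.240). In matched cells, with log2 fold changes of −3.96, −0.85 and −1.14, DESeq2 kept *Ahr* (adjusted p = 0.000319) and lost *Srxn1* and *Xbp1* (adjusted p = 0.285 and 0.0768). *Akap2*, an anchor for protein kinase A, ran from 1094 to 2402 CPM (median 1743) with *Gas1* reads and from 2148 to 3526 CPM (median 2878) without, with a log2 fold change of −0.69 ± 0.17. It fell in limma (adjusted p = 0.00231, and 0.0356 in matched cells). The other gene that fell in limma, *Gm20459*, starts upstream of *Akap2* on chromosome 4 (at 57568179, against 57717657) and had nearly the same values, so both may count the same reads. *Asb5*, a muscle gene of the ankyrin and SOCS box family that overlaps *Spcs3*, *Zfand5* and *Emp1* had log2 fold changes of −0.51 ± 0.12, −0.63 ± 0.17 and −0.56 ± 0.15. DESeq2 called all 3 (adjusted p = 0.0329, 0.0256 and 0.0435), and limma none (adjusted p = 0.0877, 0.821 and 0.485). In matched cells *Asb5* passed in DESeq2 and limma (adjusted p = 0.0259 and 0.0385), while *Zfand5* and *Emp1* lost their DESeq2 call (adjusted p = 0.359 and 0.774) and *Emp1* had a log2 fold change of −0.23.

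Hedgehog signalling, in which *Gas1* is a co-receptor, was read thinly. Of the 3 ligand genes 2 had 0 reads in every cell and none was tested. Of 7 receptor genes 5 were tested, 4 of them above 0 (63.4% of all genes were), with a median of 0.94. In matched cells the median was 0.79 over 4 genes. Of 15 transducers and targets 9 were tested, 5 of them above 0, with a median of 0.18 (0.32 over 6 in matched cells). The medians over all genes were 0.33 and, in matched cells, −0.02. edgeR and limma called none of these 14, and DESeq2 called *Ptch1* higher (adjusted p = 0.0308), as it did 3.94% of all genes. In matched cells that gene was not tested. *Ptch1*, the receptor that binds the ligand, was read in 4.51% of cells and lay at 1.29 to 89.9 CPM with *Gas1* reads and 0 to 6.76 CPM without, higher in 5 of 6 mice.

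The co-receptor *Cdon* had 180 CPM with *Gas1* reads and 90.4 without in Y4, 300.3 and 149 in Y5, 455 and 224 in Y7, 100.2 and 0 in mouse Y8, 142 and 52.1 in O1, and 275.5 and 341 in O5. It was higher with *Gas1* reads in every mouse but O5 and passed in no tool (DESeq2 adjusted p = 0.360, limma adjusted p = 0.167). *Gli2*, a transcription factor of the pathway, had 79.0 and 0 CPM in Y4, 46.2 and 4.48 in Y5, 111 and 46.5 in Y7, 20.02 and 17.2 in mouse Y8, 111 and 0 in O1, and 188 and 86.3 in O5. It was higher in each mouse and passed in no tool (DESeq2 adjusted p = 0.0965, limma adjusted p = 0.180), and 13.5% of cells had a read. *Boc*, the third co-receptor, *Smo*, the signal transducer, and *Hhip*, an inhibitor, had log2 fold changes of 0.94 ± 0.93, 0.77 ± 1.26 and −1.01 ± 2.04.

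In the GDNF and Ret list 5 of 11 genes were tested and no tool called any. Their median was 0.24, and it was 1.79 over the 2 genes tested in matched cells. *Ret* had 24.8 CPM with *Gas1* reads and 0.282 without in Y4, 18.9 and 0 in Y5, 33.2 and 8.75 in Y7, 10.5 and 0 in mouse Y8, 0 and 0 in O1, and 40.8 and 3.28 in O5. It was higher with *Gas1* reads in 5 mice and had no read in O1, but only 4.51% of all cells had a read (DESeq2 adjusted p = 0.0523). The ligand *Gdnf*, read in 10.3% of cells, and its receptor *Gfra1*, read in 14.6%, had log2 fold changes of −0.62 ± 2.09 and 0.24 ± 0.99.

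Most other lists came close to the median of all genes in matched cells. Quiescence genes had a median of 0.68 over 35 genes and 0.16 in matched cells, growth arrest genes 0.46 over 24 and 0.12, Notch genes 0.73 over 18 and 0.26, and genes of TGF-beta, BMP, Wnt and FGF signalling 0.61 over 37 and 0.19. Extracellular matrix genes had 0.49 over 38 and −0.05, adhesion and niche genes 0.16 over 29 and −0.13, proliferation genes 0.31 over 14 and −0.08, and myogenic commitment genes 0.14 over 14 and 0.01. edgeR called none of their members. In limma *Pax7* rose among the quiescence genes, *Btg2* among the growth arrest genes, and *Cdh15* among the adhesion and commitment genes. Over all genes limma called 0.138% higher and 0.0212% lower. DESeq2 called 3 matrix genes higher and 2 lower, and 1 higher and 1 lower in each of the Notch and commitment lists. It called 2 signalling genes higher, and 1 higher in each of the quiescence, growth arrest, adhesion and proliferation lists. Over all genes it called 3.94% higher and 0.541% lower. Of the matrix genes 1 was higher and 4 were lower in all 6 mice, beside 2.67% and 1.44% of all genes.

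Some members of these lists differed the same way in nearly every mouse. The Notch ligand *Jag1* was lower with *Gas1* reads in all 6 mice, at 19.4 to 63.9 CPM against 31.1 to 242 CPM (DESeq2 adjusted p = 0.0352), while the Notch target *Hey1* was higher in 5 of 6 mice (DESeq2 adjusted p = 0.00571) and *Hes1*, another target, in all 6. *Msc*, a repressor of myogenic genes, was lower in all 6 mice, at 4.41 to 602 CPM against 239 to 1107 CPM (DESeq2 adjusted p = 0.0193). *Id3*, a BMP target, ran from 408 to 1835 CPM against 108 to 1346 CPM, higher in all 6 mice with no call (limma adjusted p = 0.0668). In matched cells DESeq2 lost *Jag1* and *Hey1* (adjusted p = 0.767 and 0.417) and kept *Msc* (adjusted p = 0.0222). These genes were named after their values were seen.

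Ribosomal protein genes lay slightly on the lower side. Of 79 tested, 63 were under 0, beside 3452 of all 9428 genes, and 8 were lower in all 6 mice, beside 1.44% of all genes. Their median was −0.10 in all cells and −0.10 in matched cells. Their summed level was 34453 to 56196 CPM with *Gas1* reads and 40957 to 57321 CPM without, lower in each mouse. No tool called a ribosomal protein gene. Of 22 tested genes that the study names, 18 were above 0 with a median of 0.77 (0.54 in matched cells), a list chosen on these same cells. Of 10 genes that define other groupings of the cells 7 were above 0, with a median of 0.44 (0.002 in matched cells). Over all genes 63.4% were above 0, with a median of 0.33 (−0.02 in matched cells).

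**Figure D4:**
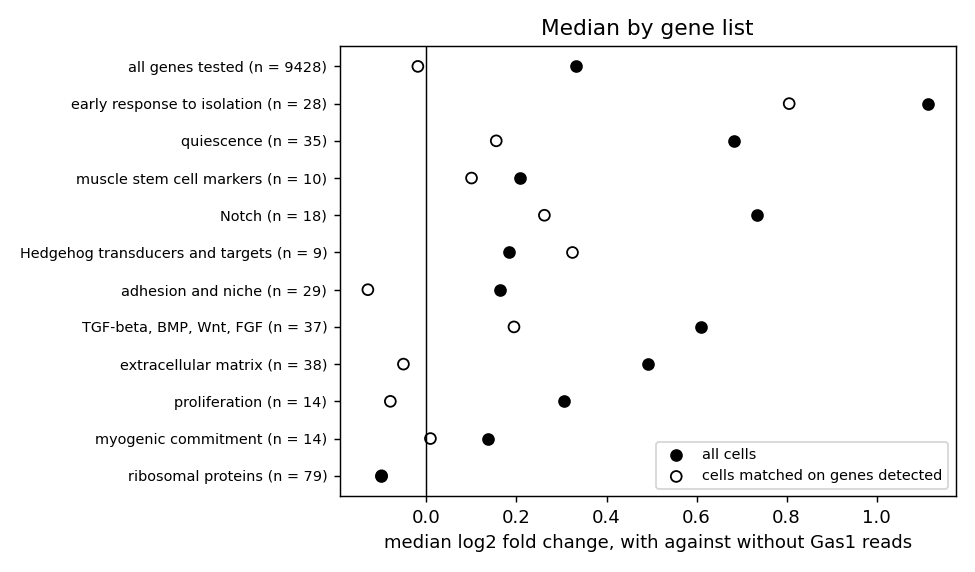
Median log2 fold change, cells with against cells without Gas1 reads, of gene lists and of all 9428 genes tested (number of genes in brackets). Filled points are all cells and open points the cells matched on detected genes; the early response to isolation is at 1.11 and 0.81, and all genes are at 0.33 and −0.02.

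The share of cells with a read was also compared. *Fos* was read, with and without *Gas1* reads, in 71.1% and 40.0% of cells in Y4, 66.7% and 21.4% in Y5, 69.4% and 56.0% in Y7, 69.8% and 16.7% in mouse Y8, 65.2% and 51.5% in O1, and 76.2% and 55.3% in O5. The share with *Gas1* reads varied little between mice, while that without ran from low in Y8 and Y5 to above the middle in Y7 and both old mice. The mean difference was 29.6 percentage points ± 16.7 (SD, n = 6, exact sign-flip permutation p = 0.03125, unadjusted and the smallest possible), and 3.96% of genes were likewise higher in all 6 mice. *Fos* was chosen for a higher level in all 6 mice of these same cells, so that p is no independent test. In matched cells the mean difference was 29.9 points ± 9.95, again in all 6 mice, as for 0.541% of genes, and 0.477% were lower in all 6.

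*Nfkbiz* (67.2% and 39.3%), *Sema6a* (65.7% and 38.6%), *Cdh15* (63.7% and 38.9%), *Btg2* (63.9% and 39.0%), *Junb* (81.2% and 59.2%), *Pax7* (94.2% and 78.0%) and *Cdon* (47.9% and 28.7%) were also read in more cells with *Gas1* reads in all 6 mice, as means over mice. In matched cells *Nfkbiz* was still higher in 6 mice, *Sema6a*, *Cdh15* and *Junb* in 5, *Btg2* and *Pax7* in 4, and *Cdon* in 3. *Egr1* (80.0% and 56.7%) was higher in every mouse but Y7, *Nr4a1* (61.5% and 42.3%) and *Edn3* (71.3% and 55.0%) in 5 of 6 mice, *Zfp36* (76.3% and 61.5%) and *Fosb* (96.7% and 83.1%) in 4 and *Jun* (85.5% and 73.5%) in 3. *Mthfd2* (7.44% and 22.2%) was lower in all 6 mice, as for 0.573% of genes, and *Myod1* (44.0% and 56.9%) in every mouse but O1.

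**Figure D5:**
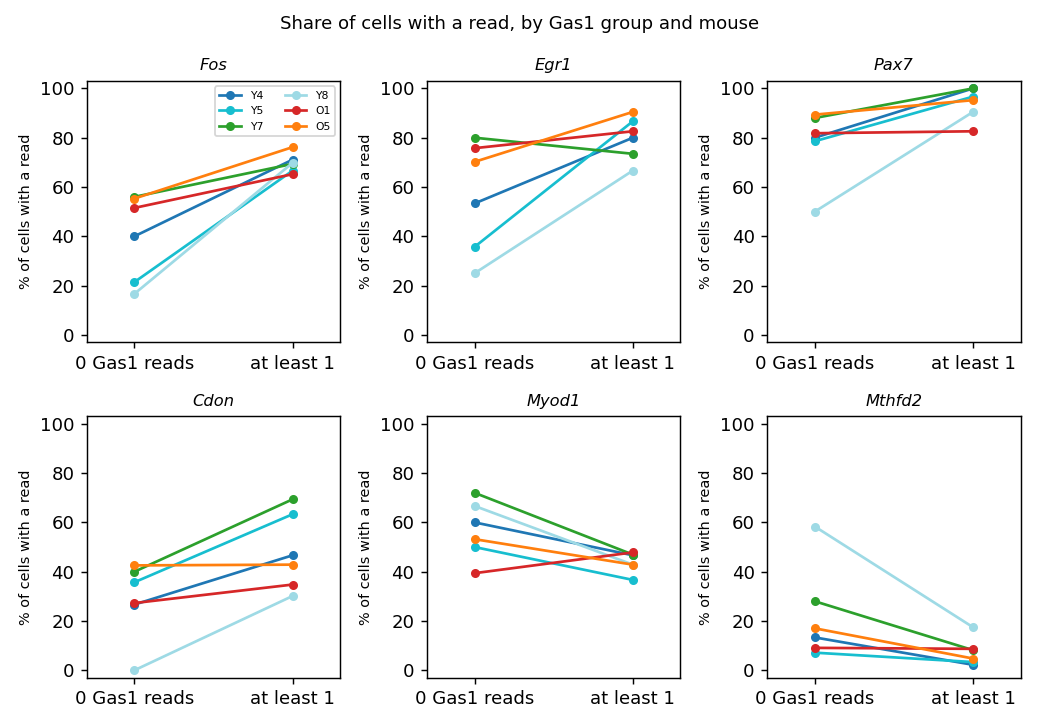
Percentage of cells with at least 1 read of Fos, Egr1, Pax7, Cdon, Myod1 and Mthfd2 in cells without and with Gas1 reads, 1 line per mouse. Fos, Pax7 and Cdon are higher with Gas1 reads and Mthfd2 lower in all 6 mice, while Y7 runs the other way for Egr1 and O1 for Myod1.

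Cells with few *Gas1* reads lay between the others for most of these genes. *Fos* was read in 46.6% of the 146 cells with 0 *Gas1* reads (95% Wilson interval 38.7 to 54.7), 56.7% of the 30 cells with 1 to 9 reads (39.2 to 72.6) and 71.6% of the 201 cells with 10 or more (65.1 to 77.4). *Cdh15* gave 39.7%, 53.3% and 66.7%, *Sema6a* 39.0%, 53.3% and 65.2%, and *Pax7* 82.2%, 90.0% and 95.5%. *Myod1* and *Mthfd2* did not follow this order, with 54.8%, 30.0% and 46.3% and with 19.2%, 3.33% and 9.45%. The classes hold unequal shares of each mouse, and the intervals cover counting error only. Among cells with *Gas1* reads, Spearman's rho between the levels of *Gas1* and *Fos* was −0.02 to 0.60 by mouse, over 21 to 63 cells of 1 mouse that differ in depth, and for *Cdh15* it was −0.31 to 0.28.

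The leading genes were chosen for differing alike in all 6 mice, so their shared direction at both ages was fixed by that choice, and only the sizes are given side by side. *Fos* had a log2 fold change of 3.09 ± 0.56 in young and 1.27 ± 0.71 in old mice, *Egr1* 2.42 ± 0.60 and 0.57 ± 0.74, *Nfkbiz* 1.46 ± 0.37 and 2.29 ± 0.55, *Cdh15* 1.18 ± 0.34 and 1.01 ± 0.50, and *Pax7* 0.71 ± 0.26 and 0.62 ± 0.36. *Ctgf* had −3.10 and −1.94 and *Mthfd2* −4.31 and −2.19. These sizes stand beside medians over all genes of 0.61 in young and −0.19 in old mice, and −0.92 for old minus young. The difference between the ages was tested for every gene, and 0 passed in edgeR (389 with an unadjusted p under 0.05) or limma (351). Both old mice were sequenced in lane 2, with Y7, so age and lane cannot be fully told apart.

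Counts of calls by age depended on the tool. In young mice limma called 13 genes (11 higher, 0.117%, and 2 lower, 0.0212%) and DESeq2 623 (582 higher, 6.17%, and 41 lower, 0.435%). In old mice limma called 0 (297 with an unadjusted p under 0.05) and DESeq2 243 (78 higher, 0.827%, and 165 lower, 1.75%). For the difference DESeq2 called 323 (45, 0.477%, and 278, 2.95%), where its median log2 difference over all genes was −0.72, and 0.01 in matched cells.

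In 3.81% of genes every young mouse ran one way and both old mice the other. *Mpzl1*, a membrane protein of the P0 family, had 45.3 to 70.7 CPM with *Gas1* reads and 0 to 0.417 without in young mice, and 0 with and 85.5 to 126 without in old mice. *Slc39a10*, a zinc transporter, had 59.5 to 78.2 and 1.41 to 45.0 CPM in young mice and 0 to 0.353 and 107 to 171 in old mice. *Slc7a1*, a transporter of cationic amino acids, ran the opposite way, with 32.1 to 115 and 43.1 to 740 CPM in young mice and 53.3 to 183 and 3.20 to 5.54 in old mice. *Gstm5*, a glutathione transferase, and *Klf5*, a transcription factor, had 0 to 0.326 and 0 to 1.59 CPM with *Gas1* reads in old mice. *Mpzl1* was read in 7.69% of all cells, *Slc39a10* in 14.3%, *Klf5* in 15.1%, *Gstm5* in 17.5% and *Slc7a1* in 21.5%. The old sums with *Gas1* reads held 23 cells in O1 and 21 in O5, so values near 0 there rest on few cells. These 5 genes had the smallest p for the difference, and none passed (edgeR adjusted p = 1.00).

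Finally, the likeness of cells within a mouse was compared. The mean Spearman correlation between pairs of cells, over the 500 most variable genes, was 0.240 with *Gas1* reads and 0.178 without in Y4, 0.288 and 0.190 in Y5, 0.279 and 0.260 in Y7, 0.236 and 0.187 in mouse Y8, 0.168 and 0.173 in O1, and 0.157 and 0.143 in O5. Cells with *Gas1* reads were more alike in every mouse but O1, by 0.0396 ± 0.0379 (SD, n = 6), which did not pass the exact sign-flip permutation test (p = 0.0625). Young mice differed by 0.0573 and old mice by 0.00420, and the value was 0.0699 in lane 3 against 0.00919 in lane 2. In matched cells it was 0.0184 (exact permutation p = 0.219), and with 1 list of 500 genes for all mice 0.0108 (exact permutation p = 0.375). The median correlation of an old cell with the mean of the young cells was 0.379 with *Gas1* reads and 0.370 without in O1 and 0.375 and 0.396 in O5, so the old mice ran in opposite directions. In matched cells both were lower with *Gas1* reads (0.375 against 0.390 in O1 and 0.375 against 0.387 in O5), and a pair of mice allows no exact permutation p under 0.5.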

How the data were processed

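The authors aligned the reads to GRCm38 with HiSat2, and the deposited table holds their raw read counts per gene from SeqMonk; the annotation release and strand setting are not given in the sources used here. Cells had 101755 to 626142 reads (median 272816) on 25952 genes. Counts were summed by mouse and *Gas1* group and tested with edgeR 4.0.16 (filterByExpr, TMM, quasi-likelihood, mouse as block, Benjamini-Hochberg at 0.05). The numbers pair the sums because both come from the same mouse. DESeq2 1.42.0 and limma 3.58.1, in R 4.3.3, were alternatives. Values per mouse were compared by exact sign-flip permutation tests (scipy 1.17.1, Python 3.11.15). edgeR was tested on simulated data. Named genes were the 10 with the smallest p on each side among genes in at least 10% of cells that differed alike in every mouse, without predicted genes, the 5 with the smallest p for the difference between ages, the Hedgehog and GDNF lists, and genes that the study or other groupings of the cells name. The cell groups and gene lists were chosen with earlier results of these data known. Methylation data were not used here.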

Additional observations from a re-analysis of the deposited data

Results flagged for a closer look

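Among the 25 measures and gene ratios over mice that could be checked for a sample far from the others, 1 stood out, where chance gives about 1 in 20. The within-mouse log2 ratio of *Sema6a* was 3.49 in the old mouse O5 and 0.77 to 1.63 in the other 5 mice. In O5 the cells without *Gas1* reads had 46.6 CPM of it, the lowest such value of the 6 mice.

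For 6 named genes every young mouse differed one way and both old mice the other, as did 359 of 9428 genes (3.81%). The mean log2 ratio in old minus that in young mice was −12.36 for *Mpzl1*, 6.06 for *Slc7a1* and −9.12 for *Slc39a10*. It was −0.78 for *Sparc* and −2.52 for *Col3a1*, matrix genes, and −1.30 for *Vcam1*. *Mpzl1* was read in 7.69% of all cells and *Slc39a10* in 14.3%, and their large ratios rest on sums at or near 0 CPM. The edgeR test of the difference between ages passed for none of the 6 (adjusted p = 1.00 for each).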

How the results depend on the processing

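With edgeR, 0 genes passed under every setting run except 1: at least 10 *Gas1* reads against 0 gave 1 gene, lower. Counts with other tools depended on the cells summed. Over all mice DESeq2 gave 422 genes, 251 in matched cells (134 higher, 117 lower) and 289 with equal numbers of cells (195 higher, 94 lower); only 75 of the 422 and the 251 were shared. limma gave 15, then 7 in matched cells and 0 with equal numbers of cells. In young mice DESeq2 gave 623, 223 and 235 genes and limma 13, 2 and 0; in old mice DESeq2 gave 243, 191 and 218; for the difference between ages it gave 323, 158 and 157. Leaving out 1 mouse gave 9 (without Y4) to 25 (without O5) genes in limma and 256 (without Y8) to 533 (without O5) in DESeq2, and 0 in edgeR. The mean difference in detected genes stayed between 100 and 192 and that in correlation between 0.0278 and 0.0486 with any 1 mouse left out. Without the replicate block (the mouse) edgeR also gave 0 genes. The 20 leading genes kept their direction under all 20 alternatives. Their choice fixes that where mice are left out, taken by lane, or where the same sums are fitted again. The other alternatives use the same cells, so none is an independent check of direction. Of 67 named genes, 38 of 894 fold changes moved by more than the SD between mice and 80 had the other sign. For old and young mice apart, single lanes were not run. Equal numbers of cells, thinning and matching together, limma and DESeq2 on matched cells, and the omission of mice in those tools were chosen after seeing the data. Rare genes such as *Ret* and *Ptch1* were each read in 4.51% of cells, and whether depth sets that share was not tested.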
